A study of Saccharomyces cerevisiae with 18 samples.

Results

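The genes described here encode the proteins of the small (40S) subunit of the cytosolic ribosome of budding yeast. They were chosen by name: every gene in the probe annotation whose symbol is RPS followed by a number and, where there is one, the letter A or B. This gave 55 genes of the 5650 on the arrays, each measured by 1 probe. Of these, 48 form 24 pairs of A and B copies, and 7 (RPS2, RPS3, RPS12, RPS13, RPS15, RPS20 and RPS31) have no partner.

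The small subunit binds the messenger RNA, scans it for the start codon and checks that each transfer RNA matches its codon. Its proteins are made in amounts that match the ribosomal RNA, and their genes are among the most heavily transcribed of growing yeast. Transcription depends on the factors Rap1, Fhl1, Ifh1 and Sfp1 and on TOR and protein kinase A signalling, and the whole set is known to be turned down together in many kinds of stress. Most of the genes survive as duplicates from an ancient doubling of the yeast genome, and the copies of a pair encode identical or nearly identical proteins.

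Total RNA was measured on 18 two-colour arrays, 3 in each of 6 groups: mutant SM1 with 6.5 % v/v ethanol and without ethanol, mutant CM1 with 6.5 % v/v ethanol and without ethanol, and the parent strain W303-1A with 6.5 % v/v ethanol and without ethanol. SM1 and CM1 are ethanol-tolerant derivatives of W303-1A, 1 strain each, and their mutations are not given in the sources used here, nor is the time in ethanol before sampling. Every array set the RNA of a separate culture against 1 common pool, made from the 3 W303-1A cultures grown without ethanol, so the arrays of that group compare a culture with a pool that contains it. All values below are log2 ratios of culture over pool, or differences between such ratios on the log2 scale. A ratio carries no level, so levels of different genes are not compared.

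The direction of the deposited ratios was taken from the dyes in the labels, which put the pool in red on replicate 1 of each group, with the ratio read as red over green. Those 6 dye-swapped arrays were multiplied by -1 throughout. Over 5515 genes outside the cytosolic ribosomal proteins, the ethanol difference as deposited on the swapped arrays correlated negatively with that on the normal arrays, at -0.33 in SM1, -0.12 in CM1 and -0.49 in W303-1A, given as a description. The deposited values of single swapped and normal arrays correlated between -0.15 and 0.59 over all probes, and the cause was not tested. In W303-1A with ethanol the median of the 55 genes was 1.18 as deposited on the swapped array, and -1.17 and -0.99 on the normal arrays. The sign of replicate 1 below follows from this choice, so its likeness to replicates 2 and 3 in sign is no sign of steadiness. The authors do not state the direction, the log base or the centring, so this reading is likely rather than certain, and with the swapped arrays left as deposited no small-subunit gene passes in any comparison. On the 12 normal arrays alone 38 of the 55 passed as lower for ethanol in W303-1A. W303-1A is a strain of mating type a, and genes that mark mating type moved with ethanol as well. Ethanol lowered all 5 a-cell genes on the list (STE2, STE6, MFA1, MFA2 and BAR1) in W303-1A, from -1.16 for MFA2 to -3.33 for STE2, whereas STE3, the alpha-cell receptor gene, stood at 0.89 and did not pass. In SM1 only STE2 passed (-2.10), and in CM1 none of the 6 did. Their part in the results below was not tested.

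Ethanol lowered the small-subunit genes of W303-1A almost as a block. Of the 55 genes, 42 (76.4 %) passed the threshold of an adjusted p of 0.05 with a lower ratio, and none with a higher one. Over all 5650 genes 13.6 % passed as lower and 10.2 % as higher. The median change of the members was -1.14, a 2.20-fold fall, against 0.03 over all genes, and the middle 50 % of the members lay between -1.52 and -0.73. The change was below 0 for 54 of 55 members. In 41 members all 3 cultures with ethanol lay below all 3 without, which held for 14.3 % of all genes. Quantile normalization of the arrays left 25 of the 42 calls.

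The per-array medians of the 55 genes were -1.18, -1.17 and -0.99 in the 3 W303-1A cultures with ethanol, against -0.21, 0.24 and -0.01 in those without. On the ethanol arrays 55, 53 and 51 of the 55 members lay below 0. Taken within 1 dye orientation, the median change of W303-1A was -0.98 on swapped arrays and -1.20 on normal ones. Because the values are ratios within an array, they describe the share of these transcripts among all transcripts, and in such bulk cultures fewer cells making a transcript and less of it per cell cannot be told apart.

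**Figure D1:**
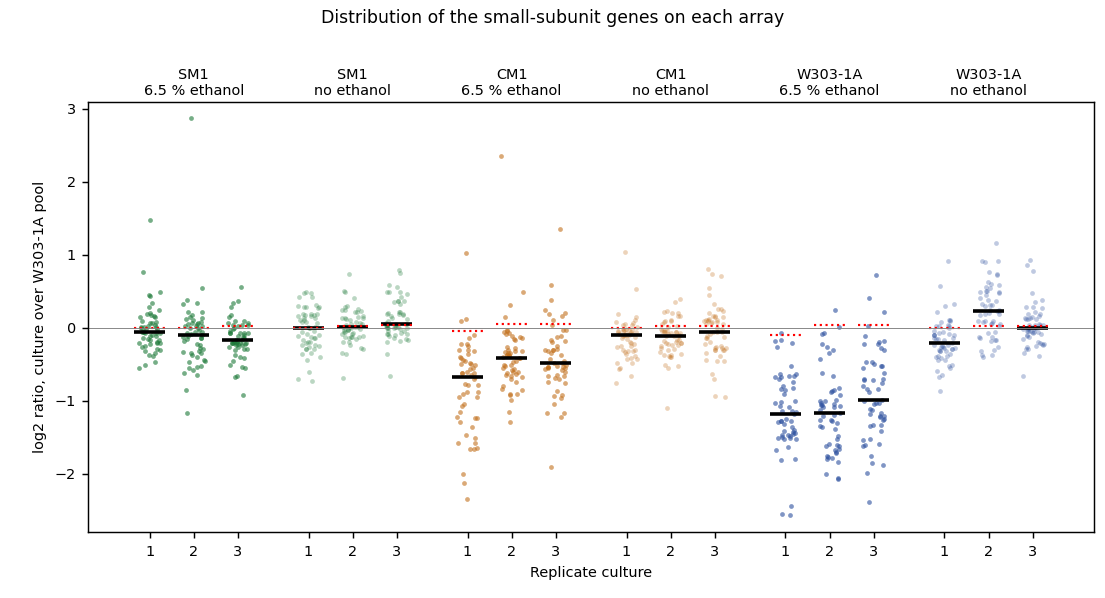
Log2 ratio of culture over pool (y axis) for the 55 small-subunit genes on each of the 18 arrays (x axis, replicate cultures within 6 groups); each point is a gene, the black line is the median of the 55 genes and the red dotted line the median of all 5650 genes. The black lines of W303-1A with ethanol lie between -1.18 and -0.99, those of CM1 with ethanol between -0.67 and -0.41, and those of SM1 with ethanol between -0.17 and -0.06.

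The 6 members with the deepest falls came from different places on the subunit. RPS0A encodes a protein of the subunit's back needed to finish the 18S ribosomal RNA. Its ratios were -1.63, -1.80 and -2.39 with ethanol in W303-1A, against 0.03, 0.33 and 0.19 without, a change of -2.12 ± 0.23 (SE, adjusted p = 2.7e-05) or 4.36-fold. The groups are far apart, and the highest ethanol value lies well below the lowest value without.

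RPS6A encodes the ribosomal protein that is phosphorylated when TOR signalling is active. It stood at -1.52, -1.76 and -1.76 with ethanol, against -0.14, 1.17 and 0.21 without (-2.09 ± 0.30, adjusted p = 0.00018). The 3 ethanol cultures were nearly alike, and the spread came from the cultures without ethanol, where replicate 2 was high. Both RPS11B and RPS11A encode proteins that bind the ribosomal RNA early in assembly. RPS11B was at -1.39, -2.01 and -1.99 with ethanol, against 0.57, -0.32 and -0.04 without, and RPS11A at -1.42, -1.61 and -1.85, against 0.03, 0.50 and 0.12. RPS11B fell by 1.87 and RPS11A by 1.84 on the log2 scale (SE 0.21 and 0.20), without overlap of the groups.

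RPS9A and RPS25B fell as far on average but less evenly. RPS9 takes part in keeping decoding accurate. RPS9A read -2.55, -0.85 and -1.16 with ethanol, against -0.32, 0.55 and 0.77 without (-1.85 ± 0.36, adjusted p = 0.0017). RPS25 is known for letting some viral messages start translation internally. RPS25B read -2.56, -1.72 and -0.79 with ethanol, against -0.29, 0.77 and 0.36 without (-1.97 ± 0.55, adjusted p = 0.018). In both genes the dye-swapped ethanol array gave the lowest value, and the groups still did not overlap. The RPS25B call was lost when replicate 1 or 2 of either group was left out, with values between -1.92 and -1.75.

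Of the 7 genes without a partner, 6 fell in W303-1A and RPS31 did not pass. RPS2, whose protein lines the mRNA entry channel and affects decoding accuracy, fell most of the 7. It was at -1.42, -2.07 and -1.54 with ethanol, against 0.30, -0.14 and 0.13 without (-1.77 ± 0.20, adjusted p = 3.7e-05). RPS13, a binder of the central domain of the ribosomal RNA, at -1.44, -1.77 and -1.03 against -0.51, 0.31 and 0.29, and RPS3, another entry-channel protein, at -1.35, -1.59 and -1.18 against -0.53, 0.49 and -0.05, changed by -1.44 and -1.34. All 3 genes had separate groups.

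RPS15, which is needed to export the unfinished subunit from the nucleus, had even cultures, -1.32, -1.27 and -1.20 with ethanol against 0.11, -0.37 and -0.12 without (-1.14 ± 0.20). RPS12, a protein of the subunit's beak, was at -1.45, -1.03 and -1.12 against -0.35, 0.09 and -0.25 (-1.03 ± 0.29), and RPS20, a protein of the head, at -1.18, -0.83 and -0.52 against -0.26, 0.73 and -0.11 (-0.97 ± 0.24). These 3 also separated completely. The calls of RPS12 and RPS20 were the weakest of the 6, with adjusted p of 0.018 and 0.0099. Quantile normalization ended the calls of RPS3 (-0.87), RPS12 (-0.63), RPS13 (-0.99) and RPS20 (-0.64). The RPS20 call was lost without replicate 2 of W303-1A without ethanol (-0.68), and the RPS12 call without that culture (-0.94) or replicate 1 (-0.99) or 3 (-1.03) with ethanol.

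RPS31 encodes a small-subunit protein made as a fusion with ubiquitin, which is then cut off. It read -0.06, -0.92 and -0.22 with ethanol in W303-1A, against -0.09, -0.13 and -0.05 without (-0.31 ± 0.23, adjusted p = 0.37). The groups overlap, and only replicate 2 stands low. UBI4, the stress-induced polyubiquitin gene, rose by 2.06 in the same comparison (adjusted p = 1.8e-05). Of the ubiquitin fusions of the large subunit, RPL40B fell by 0.91 (adjusted p = 0.020) and RPL40A stood at -0.88 without passing.

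**Figure D2:**
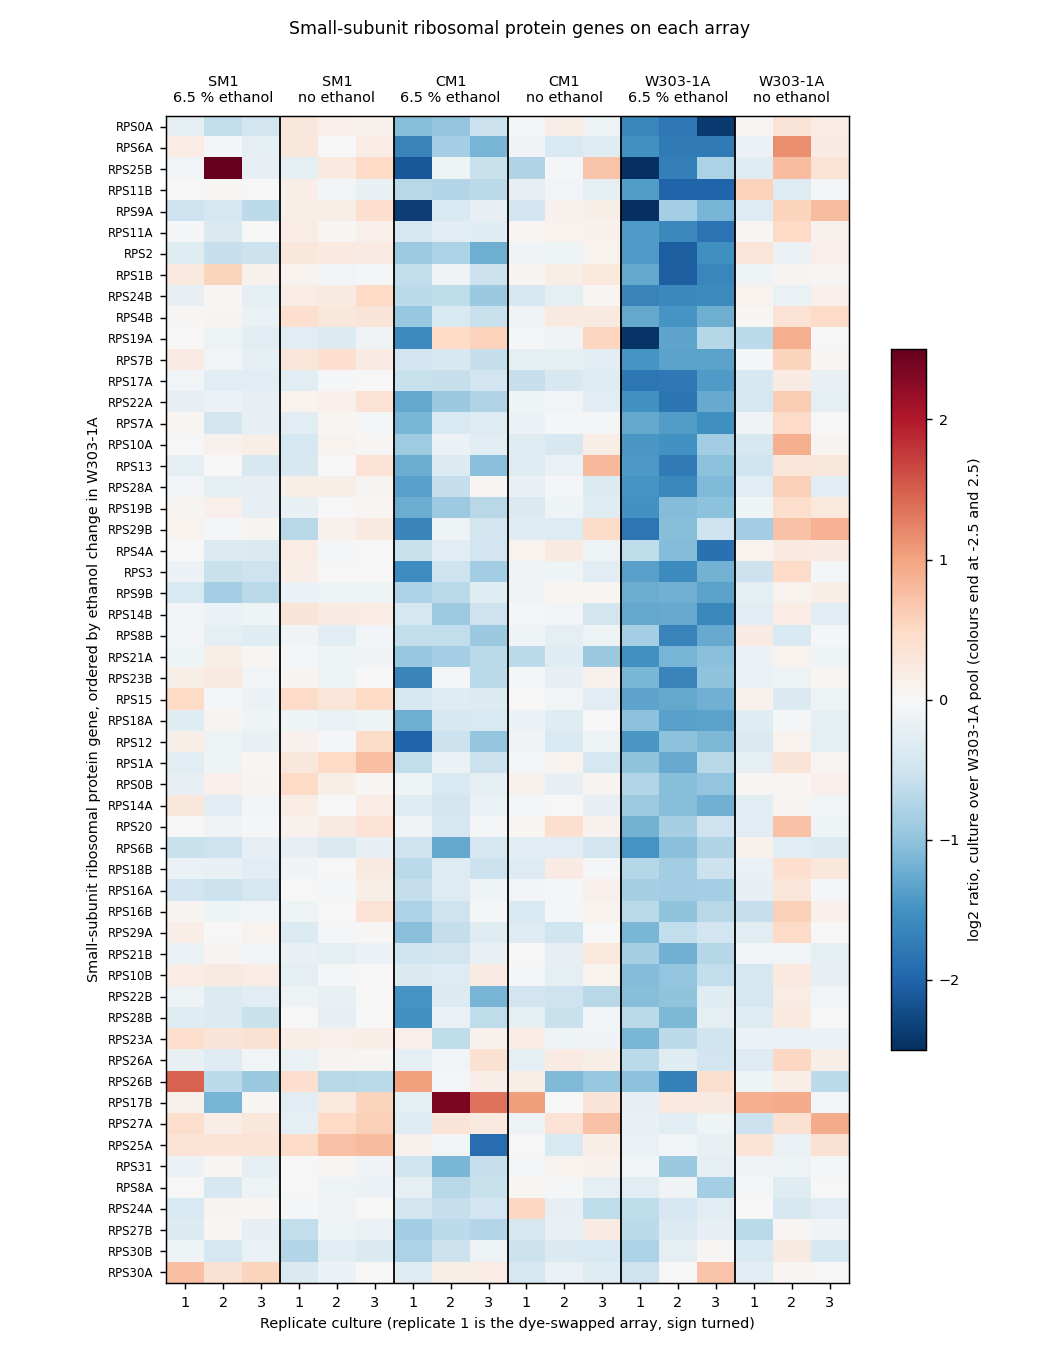
Heat map of the log2 ratio of culture over pool for the 55 small-subunit genes (rows, ordered by their ethanol change in W303-1A, deepest fall at the top) on the 18 arrays (columns, in 6 groups of 3 replicates), blue for below and red for above the pool. The W303-1A ethanol columns are blue except at the foot of the map, while the SM1 ethanol columns are pale apart from single cells such as RPS25B in replicate 2 (2.88) and RPS26B in replicate 1 (1.48).

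The 13 members that did not pass in W303-1A were RPS8A, RPS17B, RPS22B, RPS23A, RPS24A, RPS25A, RPS26B, RPS27A, RPS27B, RPS28B, RPS30A, RPS30B and RPS31. For 6 of them the 95 % interval of the change lay wholly above -1, so a fall as large as 2-fold was outside it. For the other 7 the interval reached -1. RPS30A was the sole member with a change above 0, at -0.52, 0.01 and 0.72 with ethanol against -0.28, 0.06 and -0.01 without (0.15 ± 0.24, adjusted p = 0.71). RPS30 is the yeast form of a protein that animals make as a fusion with a ubiquitin-like domain. RPS26A lay just inside the threshold (-0.60, adjusted p = 0.043), with RPS23A (-0.61, adjusted p = 0.068) and RPS22B (-0.69, adjusted p = 0.078) just outside it. RPS26B had standard error 0.52 and RPS17B 0.54, against a median of 0.23 over the members, so little can be said of their size.

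The copies of a pair did not always receive the same call. In W303-1A both copies passed in 14 pairs, 1 copy in 8 pairs, and neither in 2 pairs, RPS27 and RPS30. Neither letter led: 18 of 24 A copies and 18 of 24 B copies passed, the A copy was lower in 13 pairs and the B copy in 11. The gap between the changes of the copies ranged from 0.02 to 1.64, with a median of 0.57, and exceeded 1 in 5 pairs. No test of the gaps was made, and copies this similar may share signal between their probes, whose sequences were not used here.

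The pair with the widest gap, RPS25, combined the deep but uneven fall of RPS25B with an RPS25A that stood at -0.17, -0.07 and -0.18 with ethanol against 0.33, -0.17 and 0.38 without (-0.32 ± 0.38). In RPS24 the difference between copies was even across cultures. RPS24B, with -1.67, -1.61 and -1.59 with ethanol against 0.08, -0.17 and 0.12 without, fell by 1.63 (SE 0.19, adjusted p = 4.7e-05). RPS24A read -0.63, -0.42 and -0.28 against -0.00016, -0.40 and -0.26 (-0.22 ± 0.26). On each array with ethanol RPS24A exceeded RPS24B by 1.04 to 1.31, and without ethanol the same difference ran from -0.38 to -0.08, so the W303-1A groups do not overlap in this gap. In SM1 the same gap ran from -0.17 to 0.27 with ethanol and from -0.50 to -0.24 without, again with no overlap. In CM1 it ran from 0.07 to 0.45 with ethanol and from -0.68 to 0.95 without, so those groups overlap.

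In RPS6 and RPS0 both copies fell, by different amounts. RPS6B stood at -1.497, -1.05 and -0.75 with ethanol against 0.11, -0.27 and -0.35 without (-0.93 ± 0.26, adjusted p = 0.017), less than the -2.09 of RPS6A, and lost its call without replicate 1 of the cultures without ethanol (-0.77) or with ethanol (-0.68). RPS0B stood at -0.74, -1.06 and -0.99 against 0.03, 0.05 and 0.13 (-1.003 ± 0.19, adjusted p = 0.0015), less than the -2.12 of RPS0A. RPS0A was the lower copy on all 3 ethanol arrays, by 0.73 to 1.40, whereas the difference between RPS6A and RPS6B ran from -1.01 to -0.02. At the other end RPS16 (gap 0.03) and RPS7 (0.06) had copies that fell by nearly the same amount.

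**Figure D3:**
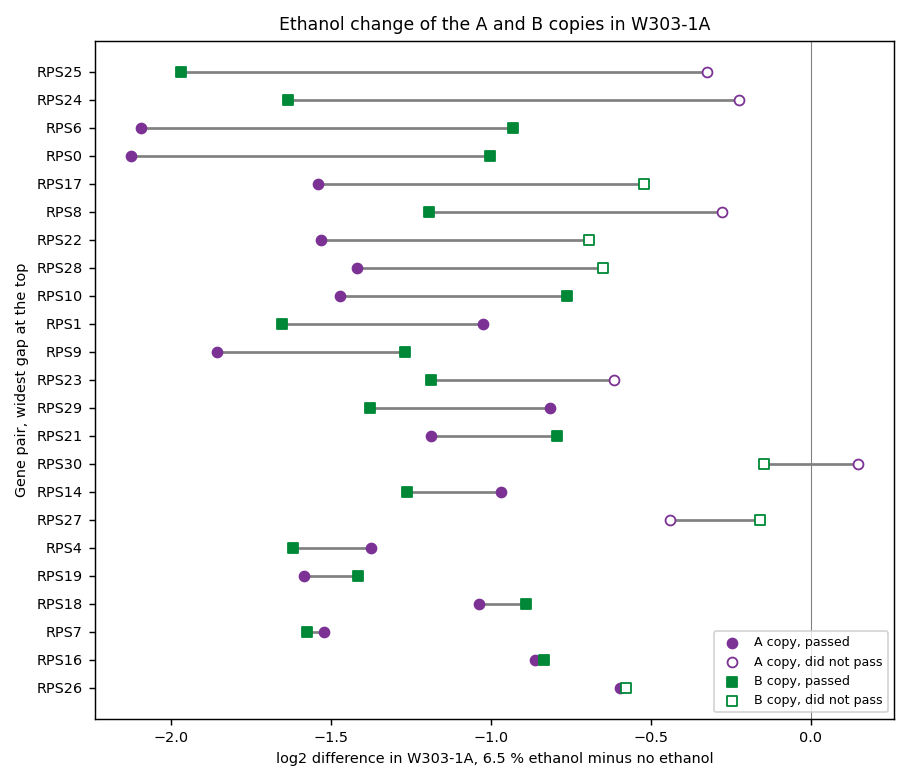
Log2 ethanol change in W303-1A (x axis, 6.5 % ethanol minus no ethanol) of the A copy (circles) and B copy (squares) of the gene pairs, 1 of which is not shown, ordered by the gap between copies; filled symbols passed an adjusted p of 0.05 and open ones did not. RPS25 and RPS24 have 1 copy near 0 and the other below -1.5, while the copies of RPS7 and RPS16 nearly coincide.

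In SM1 none of the 55 members passed in either direction for ethanol by limma, where 1.26 % of all genes passed as lower and 2.83 % as higher. The median change was -0.16, and 36 members were below 0 and 19 above. At an unadjusted p under 0.05 there were 7 lower members and 1 higher, without the share of all genes at that cut-off. All 3 ethanol cultures lay below all 3 without in 17 members, against 10.4 % of all genes, and above in 4, against 13.2 % of all genes. For 48 of 55 members the 95 % interval lay wholly above -1, which leaves out a 2-fold fall for these genes but not smaller ones. The median was -0.03 on swapped and -0.26 on normal arrays. Array weights gave 6 calls, 5 lower and 1 higher, and quantile normalization 3, 2 lower and 1 higher. The shares of all genes above belong to the main model and not to these settings.

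The 4 largest changes in SM1 went both ways. RPS9A, at -0.51, -0.45 and -0.66 with ethanol against 0.14, 0.17 and 0.42 without, had -0.78 ± 0.36 (adjusted p = 0.26). RPS2, at -0.31, -0.58 and -0.54 against 0.28, 0.25 and 0.21, had -0.72 ± 0.20 (adjusted p = 0.062). RPS30A, at 0.76, 0.38 and 0.56 against -0.36, -0.14 and -0.0041, had 0.73 ± 0.24 (adjusted p = 0.12). The groups were separate in all 3 genes although none passed over 5650 genes. RPS25B had 0.71 ± 0.55 (adjusted p = 0.57), which rests on 1 culture: it read -0.06, 2.88 and -0.20 with ethanol against -0.24, 0.24 and 0.50 without, and the change was -0.14 without the culture at 2.88. The remaining unpaired genes lay between -0.47 for RPS3 and -0.09 for RPS31, none passing.

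In CM1, 4 of the 55 members passed as lower for ethanol (7.27 %), against 1.73 % of all genes, and 51 did not pass. The median change was -0.44, and 52 of 55 members were below 0. At an unadjusted p under 0.05 there were 21 lower members and 0 higher, counts that are not set against the share of all genes here. All ethanol cultures lay below all others in 25 members, against 8.12 % of all genes. The per-array medians were -0.67, -0.41 and -0.48 with ethanol, against -0.10, -0.11 and -0.05 without. Within dye orientations the change was -0.54 on swapped and -0.35 on normal arrays.

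The 4 genes that passed were RPS2, RPS0A, RPS4B and RPS19B. RPS2 read -0.91, -0.79 and -1.22 with ethanol against -0.09, -0.11 and 0.08 without (-0.93 ± 0.20, adjusted p = 0.014). RPS0A read -1.07, -0.99 and -0.54 against -0.05, 0.16 and -0.13 (-0.86 ± 0.23, adjusted p = 0.042). RPS4B fell by 0.75 (adjusted p = 0.038) and RPS19B, whose human counterpart is mutated in Diamond-Blackfan anaemia, by 0.69 (adjusted p = 0.047). No group overlapped in these 4. The count of 4 depends on single arrays: it was 0 without replicate 2 or 3 of CM1 without ethanol, 1 without its replicate 1, 1 without replicate 1 or 3 of CM1 with ethanol, and 7 without replicate 2 of CM1 with ethanol. It was also 0 on the 12 normal arrays alone, with only the groups compared in the model, and after quantile normalization.

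The 4 largest changes in CM1 were not among the 4 that passed. RPS13 (-0.99 ± 0.30), RPS6A (-0.97 ± 0.30) and RPS12 (-0.97 ± 0.29) had adjusted p between 0.064 and 0.068. RPS13 read -1.24, -0.34 and -1.04 with ethanol against -0.30, -0.17 and 0.81 without. RPS6A read -1.66, -0.85 and -1.16 against -0.08, -0.38 and -0.30, and RPS12 -2.01, -0.53 and -0.96 against -0.09, -0.38 and -0.12. In each the swapped array, replicate 1, was lowest and replicate 2 highest among the ethanol cultures, and no group overlapped. Without replicate 2 with ethanol all 3 passed, at -1.19, -1.15 and -1.26.

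RPS26B, whose protein sits where the mRNA leaves the subunit, was the largest and ran the other way, with 1.02, -0.02 and 0.17 with ethanol against 0.14, -1.10 and -0.94 without (1.02 ± 0.52, adjusted p = 0.28). Its groups overlap. In SM1 with ethanol it read 1.48, -0.65 and -0.92. Uneven cultures were also seen in CM1 with ethanol for RPS17B (-0.22, 2.35 and 1.36), RPS19A (-1.58, 0.49 and 0.58) and RPS25A (0.10, -0.07 and -1.91). The cause was not tested. Among the unpaired genes of CM1, RPS3 (-0.83), RPS31 (-0.79), RPS20 (-0.36) and RPS15 (-0.23) did not pass, and in all 7 of them the groups were separate. RPS31 stood at -0.50, -1.15 and -0.57 with ethanol against -0.06, 0.09 and 0.10 without (adjusted p = 0.063).

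**Figure D4:**
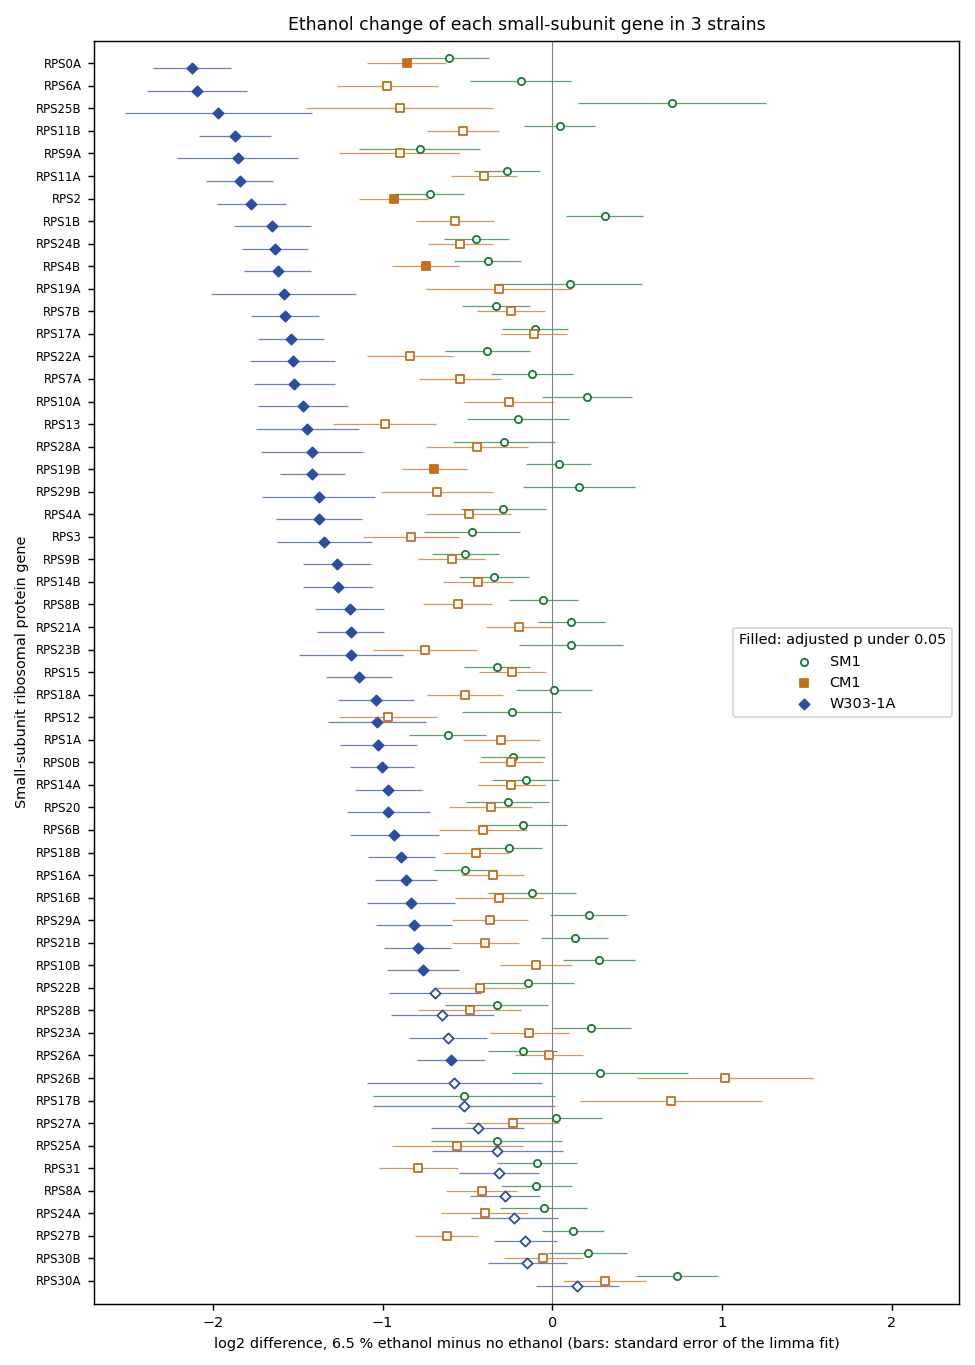
Log2 ethanol change (x axis, 6.5 % ethanol minus no ethanol, bars are the standard error of the limma fit) of each of the 55 small-subunit genes (y axis, ordered by W303-1A) in SM1 (circles), CM1 (squares) and W303-1A (diamonds); filled symbols passed an adjusted p of 0.05. The W303-1A change was lower than the SM1 change in 53 genes and lower than the CM1 change in 50.

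Without ethanol no member passed between strains by limma. This was so for SM1 against W303-1A (median -0.01, 1 member at an unadjusted p under 0.05), where 1.73 % of all genes passed in either direction, for CM1 against W303-1A (median -0.14, 4 members unadjusted), where 1.22 % of all genes did, and for CM1 against SM1 (median -0.14, 5 members unadjusted), where 1.01 % did. Array weights gave 5 calls for CM1 against SM1 and 1 for SM1 against W303-1A, and quantile normalization gave 1 in each of these. Neither the unadjusted counts nor these are set against the share of all genes. In 17 members all CM1 cultures lay below all SM1 cultures, against 7.33 % of all genes. The 95 % intervals had a median width of 0.49 to each side. RPS15 was the member with the largest difference for SM1, 0.48, 0.30 and 0.50 in SM1 without ethanol against 0.11, -0.37 and -0.12 in W303-1A without (0.55 ± 0.20, adjusted p = 0.25), named here after its values were seen. RPS6A stood at -0.66 ± 0.30 in CM1 against W303-1A (adjusted p = 0.38).

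With ethanol, 37 members in SM1 were higher than in W303-1A, against 10.3 % of all genes, with a median difference of 1.05, and none was lower. In 44 members every SM1 culture lay above every W303-1A culture, against 14.8 % of all genes. The passing differences ran from 0.62 for RPS9B to 2.56 for RPS25B. The RPS25B value rests in part on the SM1 culture at 2.88, and was 1.72 (adjusted p = 0.014) without it. Of the 37 genes, 36 were among the 42 that ethanol lowered in W303-1A. The 37th was RPS23A (1.15), a gene of the decoding centre that had just missed the threshold there. Quantile normalization gave 24 calls. In CM1 17 members were higher than in W303-1A, against 6.96 % of all genes, with a median of 0.55, and all 17 were among the 42. Cultures of CM1 lay wholly above those of W303-1A in 23 members, against 9.10 % of all genes. The largest among those that passed were RPS11A (1.30 ± 0.20, adjusted p = 0.00081) and RPS1B (1.24 ± 0.23, adjusted p = 0.0031), whose protein belongs to the platform next to the exit channel. The 17 became 9 without replicate 2 of W303-1A with ethanol, 10 without its replicate 3 and 9 without replicate 3 of CM1 with ethanol, and 0 with only the groups compared in the model. Each of these comparisons uses the same 3 W303-1A ethanol cultures as the ethanol comparison of W303-1A, so they are not separate evidence.

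CM1 against SM1, both with ethanol, gave 3 lower members, against 1.17 % of all genes, with a median of -0.47 and 50 of 55 below 0. In 27 members all CM1 cultures lay below all SM1 cultures, against 7.22 % of all genes. The 3 were RPS6A (-1.20 ± 0.30, adjusted p = 0.047), RPS19B (-0.94 ± 0.19, adjusted p = 0.020) and RPS21A (-0.84 ± 0.20, adjusted p = 0.037). RPS19B stood at -1.23, -0.91 and -0.70 in CM1, against 0.07, 0.12 and -0.21 in SM1. The groups were separate. The count was 0 without replicate 1 or 2 of SM1 with ethanol and 5 without replicate 2 of CM1 with ethanol, and on the 12 normal arrays alone the sole call was of the opposite direction, 1 member higher in CM1.

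Whether the ethanol change itself differed between strains was tested as an interaction. For SM1 minus W303-1A, 15 members had a higher, that is less negative, response, against 4.55 % of all genes, and none a lower one, with a median difference of 0.92. All 15 had fallen in W303-1A, but the difference subtracts that fall, so this overlap is no separate evidence. The largest passing ones were RPS1B (1.96 ± 0.32, adjusted p = 0.0035), RPS11B (1.91 ± 0.30, adjusted p = 0.0026) and RPS6A (1.91 ± 0.42, adjusted p = 0.016). The others were RPS0A, RPS2, RPS4B, RPS7A, RPS7B, RPS8B, RPS10A, RPS11A, RPS17A, RPS19B, RPS21A and RPS24B, with differences of 1.05 and above. The count was 9 without replicate 2 of SM1 without ethanol, 8 on the 12 normal arrays alone and 4 after quantile normalization.

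RPS1B shows the contrast on single arrays. It stood at 0.25, 0.55 and 0.10 in SM1 with ethanol against 0.08, -0.07 and -0.05 without, and at -1.29, -2.05 and -1.62 in W303-1A with ethanol against -0.10, 0.06 and 0.03 without. All SM1 ethanol cultures were above those without, and all W303-1A ethanol cultures below. RPS11B in SM1 was at 0.02, 0.02 and -0.01 with ethanol against 0.16, -0.08 and -0.18 without, and RPS6A at 0.18, -0.03 and -0.23 against 0.28, 0.01 and 0.19, with overlapping groups in both. RPS25B had the largest difference of all (2.67 ± 0.78, adjusted p = 0.055), which did not pass and rests in part on the SM1 culture at 2.88. Without that culture it was 1.83 ± 0.54 (adjusted p = 0.065).

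For CM1 minus W303-1A, 6 members had a higher response, against 3.45 % of all genes, with a median of 0.69, and none a lower one. They were RPS11A (1.44 ± 0.28, adjusted p = 0.0098), RPS17A (1.43 ± 0.27, adjusted p = 0.0098), RPS11B (1.34 ± 0.30, adjusted p = 0.021), RPS7B (1.33 ± 0.28, adjusted p = 0.017), RPS0A (1.27 ± 0.33, adjusted p = 0.037) and RPS24B (1.09 ± 0.27, adjusted p = 0.032). All 6 also passed for SM1, which shares the W303-1A arrays. RPS17A read -0.56, -0.57 and -0.48 in CM1 with ethanol against -0.57, -0.41 and -0.31 without, and -1.80, -1.78 and -1.42 in W303-1A with ethanol against -0.39, 0.20 and -0.19 without. The CM1 groups overlap and the W303-1A groups do not.

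RPS11A, at -0.41, -0.26 and -0.30 in CM1 with ethanol against 0.04, 0.09 and 0.10 without, and RPS11B, at -0.69, -0.74 and -0.66 against -0.21, -0.06 and -0.25, had separate CM1 groups but smaller gaps than in W303-1A. RPS26B had the largest difference in size (1.60 ± 0.73, adjusted p = 0.21) and did not pass. The count of 6 was 3 without replicate 1 of CM1 without ethanol, 2 without its replicate 3 and 11 without replicate 1 of CM1 with ethanol. For CM1 minus SM1 no member passed by limma, where 0.336 % of all genes did in either direction. The median was -0.28, with 48 of 55 below 0 and 3 members at an unadjusted p under 0.05.

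The other genes of the ribosome give the setting. Over all genes, 13.6 % passed as lower in W303-1A, 2.83 % as higher in SM1 and 1.73 % as lower in CM1. Of 75 large-subunit genes 50 (66.7 %) fell in W303-1A, with a median of -0.91, 1 (1.33 %) rose in SM1 (median -0.15), and 6 (8 %) fell in CM1 (median -0.37). Of 51 assembly factors of the small subunit, which build and trim it in the nucleolus, 31 (60.8 %) fell in W303-1A (median -1.06), 0 passed in SM1 (median -0.14, 2 members at an unadjusted p under 0.05) and 5 (9.80 %) fell in CM1 (median -0.44). RRP5, which joins the processing of both subunits' ribosomal RNA, fell by 2.32 (adjusted p = 7.0e-05), KRE33, the acetyltransferase of the 18S ribosomal RNA, by 2.05 (adjusted p = 7.1e-05), and NOP1, the fibrillarin of yeast, by 1.76 (adjusted p = 0.0014). These lists thus had medians close to that of the small-subunit proteins in each strain. No test of the difference between lists was made.

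ASC1, a protein on the head of the small subunit that has no RPS name, fell by 2.41 in W303-1A (adjusted p = 1.5e-05) and by 1.36 in CM1 (adjusted p = 0.0035), and stood at -0.60 in SM1 (adjusted p = 0.20). STM1, which binds resting ribosomes, fell by 1.38 in W303-1A (adjusted p = 0.0040). Of the 5 stalk proteins of the large subunit 3 fell in W303-1A, RPP0 by 2.03 (adjusted p = 0.0016), and RPP0 also fell in CM1, by 1.57 (adjusted p = 0.026). The 28 genes of the mitochondrial small subunit, a separate ribosome, had 1 rise (3.57 %) and 2 falls (7.14 %) in W303-1A (median -0.08), against 10.2 % and 13.6 % of all genes. They had no call in SM1 by limma (median 0.28, 7 at an unadjusted p under 0.05) and 2 rises (7.14 %) in CM1 (median 0.40), against 3.88 % of all genes.

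Of 18 regulators of ribosomal protein genes, 1 passed as higher (5.56 %) and 2 as lower (11.1 %) in W303-1A, against 10.2 % and 13.6 % of all genes. TOR1, a kinase of the TOR pathway, rose by 0.70 in W303-1A (adjusted p = 0.031), and FHL1 and RAP1, which sit on ribosomal protein promoters, fell by 1.73 (adjusted p = 0.022) and 1.54 (adjusted p = 0.0070). In SM1, where no small-subunit gene passed, RAP1 fell by 1.82 (adjusted p = 0.0099) and HMO1, another promoter protein of these genes, by 1.63 (adjusted p = 0.0027), 2 of 18 (11.1 %) against 1.26 % of all genes. No regulator passed in CM1 by limma, and 4 did so at an unadjusted p under 0.05. Each is a transcript ratio and says nothing of the protein's activity.

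**Figure D5:**
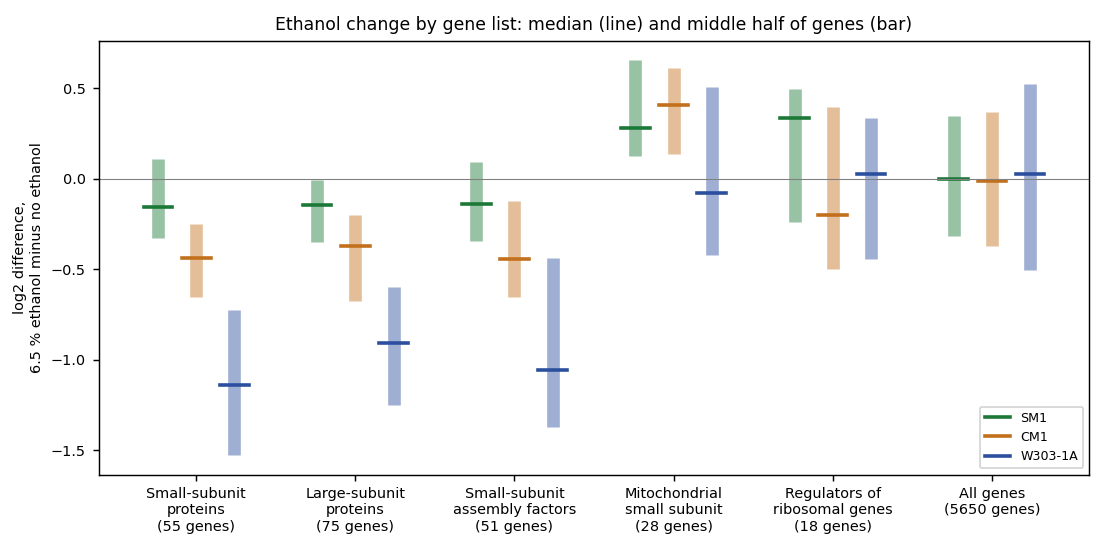
Log2 ethanol change (y axis, 6.5 % ethanol minus no ethanol) in SM1, CM1 and W303-1A for 5 gene lists and for all 5650 genes; the line is the median and the bar spans the middle 50 % of the genes. Small-subunit proteins (medians -0.16, -0.44 and -1.14), large-subunit proteins and small-subunit assembly factors are ordered alike over the strains, while the medians of all genes lie within 0.03 of 0.

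The calls were spread over the subunit. Of 21 proteins of the head and beak 17 fell in W303-1A (median -1.03), and of the other 34 members 25 did (median -1.19). This grouping was chosen after values had been seen. Members without a partner (6 of 7, median -1.14) and members of pairs (36 of 48, median -1.11) are given here for comparison, with no test of the difference. RPS14B and RPS22A, the only members that are direct neighbours on a chromosome in the RefSeq annotation, fell by 1.26 and 1.53.

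Over the 6 group means, most members followed the mean of the others closely, with Pearson correlations up to 0.995 for RPS16B and RPS28A. RPS30A (-0.13), RPS17B (-0.10), RPS30B (0.16) and RPS26B (0.22) did not. The mean of the 55 was also set against 5458 genes whose symbols do not begin with RPS, RPL, RPP or MRP. Assembly factors and regulators stayed among these. Most like the mean were TIF3 (0.993), a helper of the RNA helicase in translation initiation, and NUC1 (0.991), a mitochondrial nuclease. Next came TCD1 (0.991), a modifier of transfer RNA, YBR242W (0.989) and NMD3 (0.988), the export adaptor of the large subunit. These correlations rest on 6 points that share 1 pool, and 87 genes had one over 0.95. NMD3 changed by -0.48 in SM1, -0.88 in CM1 and -2.02 in W303-1A.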

How the data were processed

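Per the labels, RNA was extracted from equal numbers of cells with glass beads, treated with DNase and labelled indirectly with 2 Alexa Fluor dyes. The deposited values are normalized log ratios of both dyes, read here as log2 ratios. How the authors read and normalized the signals is not given in the sources used here, and their direction, log base and centring stay unknown. Intensities and backgrounds were not used, so the number of arrays limits the precision.

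There were 6368 probes and 0 missing values. A single gene symbol was given for 5673 probes, several for 0 and none for 695. The 23 genes with 2 probes were averaged, giving 5650 genes. All 55 members matched the RefSeq table by symbol and gene ID. The 6 swapped arrays were multiplied by -1. A linear model with 6 group means and a dye term was fitted to all 18 arrays in limma 3.58.1 under R 4.3.3 (11 residual degrees of freedom, prior 3.87), with Benjamini-Hochberg adjustment over 5650 genes and a threshold of 0.05. There were 12 comparisons. Counts at an unadjusted p under 0.05, and counts under alternative settings, are given without the share of all genes. The model was tested on simulated data.

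Genes named are the members with the largest changes or response differences, the unpaired genes, the pairs with the widest gaps, and exceptions to a count. Members, lists and rules were chosen with earlier results of these data known. Replicates 2 and 3 showed no pairing by number: the difference between them correlated between -0.17 and 0.093 over 15 pairs of groups. Pairing of replicate 1 could not be checked, because it is also the swapped array. Alternatives were another centring, quantile normalization, array weights, no dye term, a replicate block, only the groups compared, swapped arrays not turned, and each array left out. After the data had been seen, removal of a trend along the probe number and each dye orientation alone were added.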

Additional observations from a re-analysis of the deposited data

Results flagged for a closer look

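The ethanol response differed between strains in a test of the difference itself for 15 small-subunit genes in SM1 against W303-1A, and for 6 in CM1 against W303-1A. For SM1 minus W303-1A the largest were RPS1B at 1.96, RPS11B at 1.91 and RPS6A at 1.91 on the log2 scale. For CM1 minus W303-1A they were RPS11A at 1.44, RPS17A at 1.43 and RPS11B at 1.34. Both comparisons use the same 6 W303-1A arrays.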

How the results depend on the processing

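Counts are of the 55 small-subunit genes that passed. The share of all genes passing under each alternative is not given here. For ethanol in W303-1A, 42 became 25 after quantile normalization. For ethanol in SM1, 0 became 3 after quantile normalization and 6 with array weights. For ethanol in CM1, 4 became 0 after quantile normalization, 0 on the 12 normal arrays, 0 with only the groups compared, 1 without the dye term, 8 with array weights and 8 once a drift over probe numbers had been taken out. With quantile normalization SM1 against W303-1A without ethanol had 1, CM1 against SM1 without ethanol 1, SM1 against W303-1A with ethanol 24, CM1 against W303-1A with ethanol 5, CM1 against SM1 with ethanol 0 and the response difference SM1 minus W303-1A 4. With array weights these were 1 for SM1 against W303-1A without ethanol, 5 for CM1 against SM1 without ethanol, 1 for CM1 against SM1 with ethanol, and 27 and 12 for the response differences of SM1 and CM1 from W303-1A. Without the dye term, CM1 against W303-1A with ethanol had 8, CM1 against SM1 with ethanol 0 and the CM1 response difference 3. With only the groups compared these were 0, 0 and 2. On the 12 normal arrays the SM1 response difference had 8, and CM1 against SM1 with ethanol had 1 in the opposite direction. Counts above 0 had been found for ethanol in W303-1A and CM1, between strains with ethanol, and for both response differences from W303-1A. With the swapped arrays not turned, each of these was 0. In that reading RPS25A (0.0097), RPS24A (0.20) and RPS6B (0.14) in W303-1A, RPS30A (-0.015) in SM1, and RPS6A (0.082) and RPS12 (0.31) in CM1 changed sign, as did RPS25B in SM1 (-0.14) without replicate 2 with ethanol, where leaving out single arrays gave up to 1.47. The cause of these shifts was not tested.

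With the dye term replaced by a replicate block the counts were 41 for ethanol in W303-1A, 1 for ethanol in CM1 and 1 for CM1 against SM1 with ethanol. Replicate 1 is also the swapped array. With 1 array left out, the counts were 34 to 41 for ethanol in W303-1A, 0 to 7 in CM1, 27 to 36 for SM1 against W303-1A with ethanol, 9 to 22 for CM1 against W303-1A, 0 to 5 for CM1 against SM1, and 9 to 17 and 2 to 11 for the response differences of SM1 and CM1. The median change of the 55 genes in W303-1A stayed below 0 under every alternative run, from -1.20 on the normal arrays to -0.49 with the swapped arrays not turned. The sign of the latter follows from the normal arrays, which outnumber the swapped ones in each group, so it is no separate evidence.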
